A study of Mus musculus with 16 samples.

Results

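The genes described here encode the mouse translation initiation factors (Eif symbols) and elongation factors (Eef symbols). They were taken from the deposited gene annotation as the Ensembl protein-coding genes whose symbol begins with Eif or Eef followed by a digit, leaving out the 4 kinases Eif2ak1, Eif2ak2, Eif2ak3 and Eif2ak4, which phosphorylate eIF2. The rule took 60 genes (51 Eif and 9 Eef) of 22159 Ensembl protein-coding genes and 50578 genes in all, and they lay on 19 chromosomes. The choice used names only and no measured value.

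The study looked at translation in mouse macrophages with and without lipopolysaccharide (LPS), a bacterial cell wall component. It holds 16 libraries of bone-marrow-derived macrophages, grown for 7 days with the growth factor M-CSF at 50 ng per ml. RNA-seq of wild-type C57BL/6 cells gave 3 untreated and 3 LPS libraries, and ribosome profiling of wild-type C57BL/6 cells gave 2 untreated and 2 LPS libraries. RiboTag libraries came from cells of the genotype LysM-Cre x RiboTag, in which Cre expressed from a myeloid promoter switches on an HA-tagged ribosomal protein, and ribosome-bound RNA was recovered with an anti-HA antibody in 2 libraries each without LPS, after 6 h and after 24 h. For the LPS libraries of RNA-seq and profiling, the labels do not give the duration of LPS for each library. Library values were not analysed here and their depth is unknown, so nothing is said of LPS effects and the labelled cell type was not checked against its markers. What follows is a description of gene models, in build mm10.

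Translation begins when eIF2, loaded with GTP and the initiator tRNA, joins the small ribosomal subunit together with eIF1, eIF1A, eIF3 and eIF5. The mRNA is brought in by eIF4F, which joins the cap-binding protein eIF4E, the helicase eIF4A and the scaffold eIF4G, and the large subunit is joined with the help of eIF5B. eEF1A then delivers each aminoacyl-tRNA and eEF2 moves the ribosome along by a codon. In macrophages this machinery is a known point of control after bacterial stimulation, through phosphorylation of eIF2 and eIF4E and through the 4E-BP inhibitors of eIF4E.

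Taken over all 59 members with a complete coding sequence (CDS, with annotated start and stop codons), coding length was near that of other genes. The median of the longest complete CDS was 361 codons, with a lower quartile of 235 and an upper quartile of 565. Over all 21598 coding genes with a complete CDS the median was 395 codons, with quartiles of 257 and 652. The 5′ untranslated length of the same transcripts had a median of 120 bases in the members and 134 bases in all coding genes, and the 3′ untranslated length 615 and 608.5 bases. The transcript with most exons had a median of 10 exons in the members and 7 over all coding genes. Of the 60 members, 1 had a single exon, against 11.4% of coding genes. Genes are not replicates, so these values are descriptions and carry no test.

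**Figure D1:**
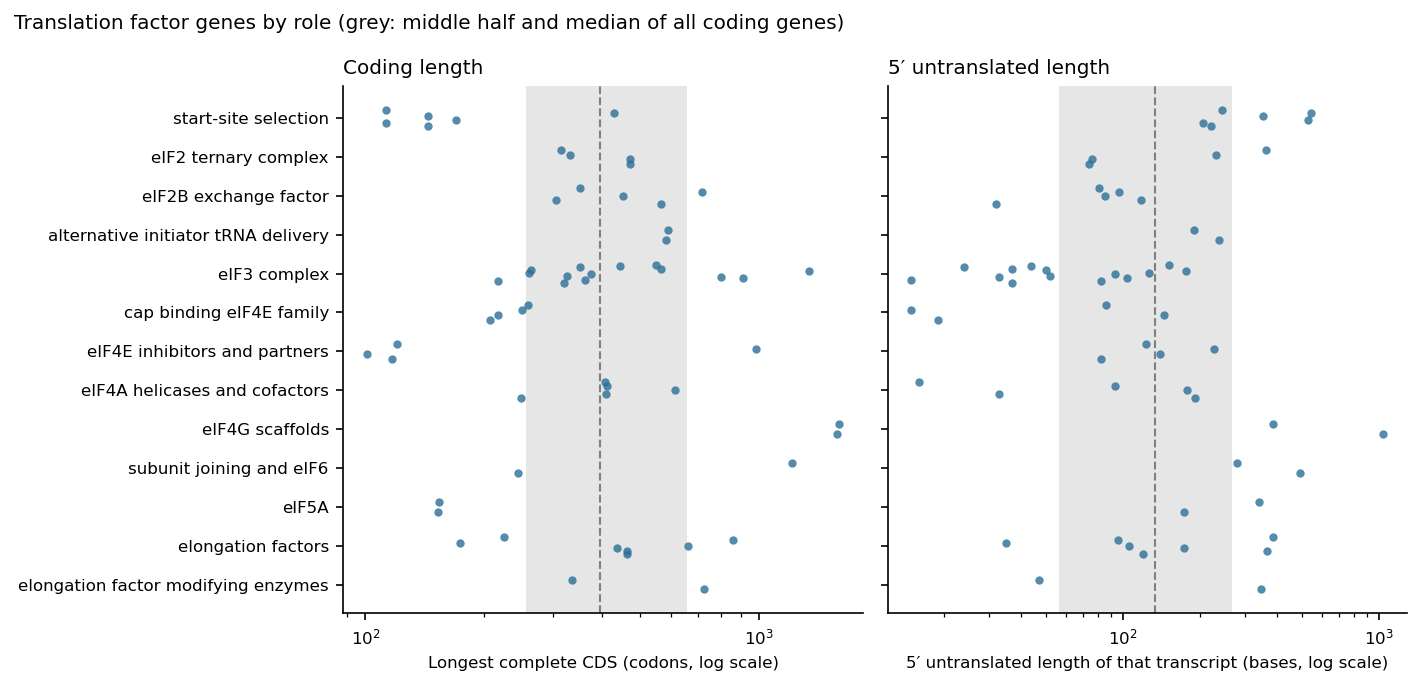
Longest complete CDS in codons (left) and 5′ untranslated length of the same transcript in bases (right), both on log axes, with a point for each translation factor gene, grouped by role; the dashed line and grey band are the median and middle quartiles of all coding genes. The genes listed under start-site selection have 5′ untranslated regions of 205 to 541 bases, while the eIF3 genes lie between 15 and 176 bases.

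Of the 6 genes listed under start-site selection, 5 had CDSs below the lower quartile of coding genes (257 codons). All 6 had 5′ untranslated regions of 205 bases or more. eIF1 and eIF1A sit on the small subunit and keep it from committing to a wrong start codon. Eif1 (chr11:100319885-100322096) and its paralogue Eif1b (chr9:120492606-120495327) each encoded 113 codons, in 4 coding segments whose 2 internal lengths were the same in both genes. Their 5′ untranslated lengths were 245 and 205 bases. Eif1ax on chromosome X and Eif1a on chromosome 18 each encoded 144 codons of eIF1A. Eif1ax spread them over 7 coding segments and Eif1a held them in 1. Eif1ad, which encodes an eIF1A-domain protein, had 170 codons and a 5′ untranslated length of 530 bases. Its place in this list was not tested. Eif5, the GTPase-activating protein of eIF2, had 429 codons behind 541 bases. All 6 genes of this list lay above the median 5′ untranslated length of coding genes. Of the 6, 3 lay above its upper quartile of 264 bases, Eif1ad among them. The 5′ untranslated region of Eif5 exceeded that of 93.7% of coding genes. This holds for the longer of its 2 complete transcripts, and the other had 303 bases.

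eIF2 is a heterotrimer of α, β and γ subunits. Eif2s1, which encodes the α subunit phosphorylated in stress, had 315 codons and a 5′ untranslated length of 363 bases. Eif2s2 (β) had 331 codons and 231 bases. The γ subunit is encoded on both sex chromosomes, by Eif2s3x (chrX:94188707-94212862) and Eif2s3y (chrY:1010543-1028847). Each had 472 codons in 12 coding segments, and all 10 internal segment lengths were the same in order. Their 5′ untranslated lengths were 76 and 74 bases, whereas their 3′ untranslated lengths were 2152 and 343 bases. Of these lengths, that of the 3′ untranslated region was the one that set the pair apart.

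The 5 genes of eIF2B, the exchange factor that reloads eIF2 with GTP, encoded 305 (Eif2b1, α) to 717 codons (Eif2b5, ε). In the transcript with the longest complete CDS, all 5 had 5′ untranslated lengths below the median of coding genes, from 32 bases in Eif2b4 to 118 in Eif2b1. For Eif2b4 this depended on the transcript, with 32 to 407 bases over its 4 complete transcripts. Eif2a and Eif2d, whose proteins can deliver initiator tRNA without eIF2, had 581 and 587 codons behind 238 and 189 bases.

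The 14 eIF3 genes, which encode the scaffold that spans the small subunit, ranged from 218 codons in Eif3k to 1344 in Eif3a. Their 5′ untranslated regions were short, with a median of 51 bases and a range of 15 (Eif3f) to 176 (Eif3a). Of the 14 genes, 12 lay below the median of coding genes and 8 below the lower quartile of 57 bases. Eif3b had 33 bases before 803 codons and Eif3c 104 bases before 911 codons. Eif3d, whose protein can bind the cap of some mRNAs, had 152 bases before 548 codons. The remaining core and peripheral subunits were Eif3e with 445 codons, Eif3g with 320, Eif3h with 352, Eif3i with 325, Eif3l with 564 and Eif3m with 374. Eif3f had 361 codons. The loosely bound subunit eIF3j is encoded by 2 members, Eif3j1 on chromosome 2 (261 codons in 8 coding segments, 3′ untranslated length 4500 bases) and Eif3j2 on chromosome 18 (263 codons in 1 segment of a single exon).

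In the cap-binding family, Eif4e encoded 217 codons, Eif4e2 259, Eif4e3 207 and Eif4e1b 250. Eif4e1b shared 4 of the 5 internal segment lengths of Eif4e in the same order, and Eif4e2 shared 0 of 5. Eif4e had the longest 3′ untranslated region of the 4 genes, 4192 bases, which exceeded that of 96.6% of coding genes. The 4E-BP inhibitors, like Eif1 and Eif1b, were the shortest members by CDS, with 117 codons in Eif4ebp1, 120 in Eif4ebp2 and 101 in Eif4ebp3. Eif4enif1, whose protein carries eIF4E into the nucleus and into P-bodies, had 983 codons.

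The helicase genes Eif4a1 and Eif4a2 encoded 406 and 408 codons in 11 coding segments each, and all 9 internal segment lengths were the same in order. Eif4a3, which belongs to the exon junction complex, encoded 411 codons in 12 segments, of which 1 internal length matched Eif4a1. Their 5′ untranslated lengths were 16, 33 and 93 bases. For Eif4a2 this depended on the transcript: Eif4a2-014, with 408 codons, had 33 bases, and Eif4a2-001, with 407 codons, had 348. The helicase cofactors Eif4b and Eif4h encoded 611 and 248 codons. The scaffolds Eif4g1 and Eif4g3 had the longest CDSs of the members, 1600 and 1579 codons, and shared 11 internal segment lengths of 30 and 28. The 5′ untranslated length of Eif4g3 was 1040 bases, with the start codon in exon 5, and exceeded that of 98.9% of coding genes. This was the highest of its 5 complete transcripts, which ranged from 477 to 1040 bases. Eif4g3 was also the widest member, over 215487 bases of chromosome 4.

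Eif5b, the GTPase of subunit joining, encoded 1216 codons and Eif6, which keeps the subunits apart, 245. Eif5a and Eif5a2, the genes of the factor that carries the amino acid hypusine, encoded 154 and 153 codons with the same 2 internal segment lengths. Eef1a1 and Eef1a2 encoded 462 and 463 codons with the same 5 internal segment lengths. Their start codons lay in exon 2, behind 120 and 366 bases. Eef1b2, Eef1d and Eef1g encode subunits of the complex that recharges eEF1A with GTP. Their longest complete CDSs had 225, 660 and 437 codons, and Eef1d also had shorter ones, among them 281 codons. Eef1e1, whose protein sits in the aminoacyl-tRNA synthetase complex, encoded 174. Eef2 encoded 858 codons behind 96 bases. Its kinase gene Eef2k had 724 codons and its lysine methyltransferase gene Eef2kmt 335. Over all members, the start codon lay in the first exon in 43 of 59 genes, against 68.0% of coding genes.

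A single CDS length described 38 of the 59 members, and 21 had more than 1 complete CDS length, against 36.3% of coding genes. Eef1d had 5 lengths, among them 660 codons and 281 codons, and its start codons lay at 2 positions 2560 bases apart. Eif4h had 248 and 228 codons. Eif4a2 had 6 lengths, of which 362 codons was shared by 3 transcripts. Eif4g1 had 7 lengths and start codons at 5 positions, the most of any member. Eif4e2 also had 7 lengths, all between 228 and 259 codons. Start codons at more than 1 position were annotated in 15 of 60 members, against 16.6% of coding genes. In Eif4e the 2 positions lay 23000 bases apart. On chromosomes 1, 2, 3, 4, 5, 11 and X, the 7 on which manually curated transcripts were most complete, the counts were 11 of 26 members and 19.4% of coding genes.

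Eif4g2 was the only member with no annotated start codon. It encodes the eIF4G-related protein also called DAP5 or p97, which is known to start at a GUG codon in place of AUG. The gene lies at chr7:111070568-111083030 on the minus strand and had 6 coding transcripts. Of these, 5 began their CDS at the same base, 111081547, and 0 had a start codon line. Eif4g2-001 had 906 codons and Eif4g2-002 had 868, both with a stop codon line and an open reading frame in phase at the first base. In Eif4g2-001 the CDS followed 332 bases of 5′ untranslated sequence. Another 3 were tagged as lacking a 3′ end, and Eif4g2-013 as lacking a 5′ end. An open start of this kind with no start codon line in any transcript was found in 182 of 22159 coding genes, or 0.821%, of which 150 had no manually curated transcript. Because a complete CDS requires a start codon line, Eif4g2 drops out of the CDS and untranslated-region counts above.

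**Figure D2:**
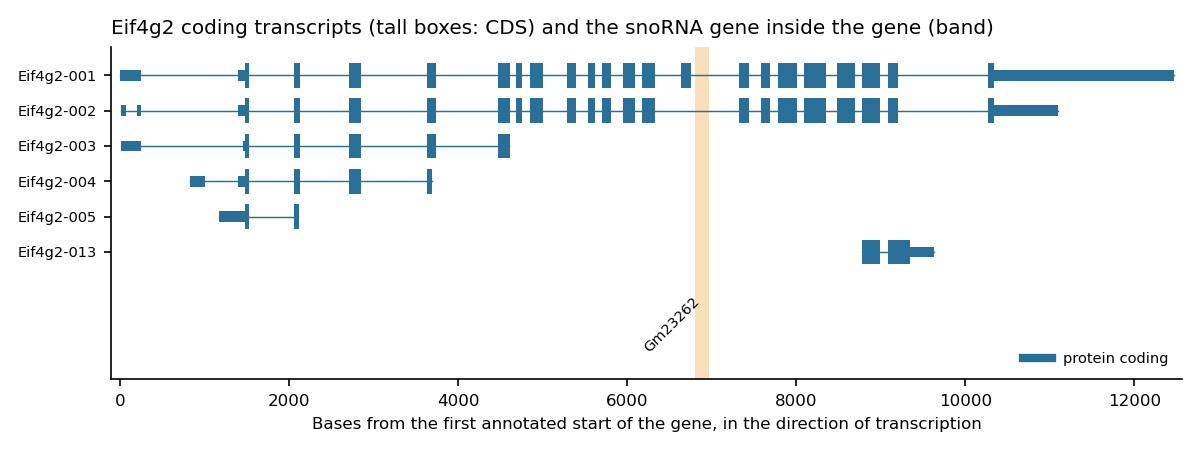
Coding transcripts of Eif4g2 by distance in bases from the first annotated start, with exons as low boxes, CDS as tall boxes and the snoRNA gene Gm23262 as a vertical band. The CDS of 5 of the 6 transcripts begins at the same base, 1483 bases from the start, with no start codon line.

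Small nucleolar RNAs (snoRNAs), which guide chemical modification of ribosomal RNA, are in mammals mostly processed from introns of host genes. Of the 60 members, 8 contained a snoRNA gene on the same strand within their span, or 13.3% (Wilson 95% interval 6.91 to 24.2%), against 1.25% of coding genes. Among coding genes with more than 1 exon the share was 1.41%, and among the 112 coding genes named Rpl or Rps, the ribosomal protein genes, 28 were hosts. The hosts were Eef1b2, Eef2, Eif3a, Eif4a1, Eif4a2, Eif4g1, Eif4g2 and Eif5. Together they held 17 snoRNA models at 16 separate places. On chromosomes 1, 2, 3, 4, 5, 11 and X, 2 of 26 members were hosts (7.69%), against 1.26% of coding genes. At least 1 snoRNA shared no base with any exon of its host in 6 of 60 members, against 1.13% of coding genes. Among hosts alone, these were 6 of the 8 members and 250 of 276 coding genes.

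Eif4a2 (chr16:23107444-23114136) held 5 snoRNA genes, the most of any member. Snord2 lay in intron 3 of Eif4a2-014, the transcript with the longest complete CDS, Gm24201 in intron 6, Snora81 in intron 7, Gm26447 in intron 8 and Gm24616 in intron 9. Each of the 5 also fell at least partly inside an exon of a retained-intron transcript of Eif4a2. Snord2 was covered by 3 such transcripts, while 15 of the 24 Eif4a2 transcripts spanned it as an intron. Its paralogue Eif4a1 (chr11:69666936-69672423) held 3, with Gm22988 in intron 4, Gm25835 in intron 5 and Gm24029 in intron 9. Gm25835 shared no base with an exon of Eif4a1, and the other 2 lay wholly inside exons of non-coding Eif4a1 transcripts.

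**Figure D3:**
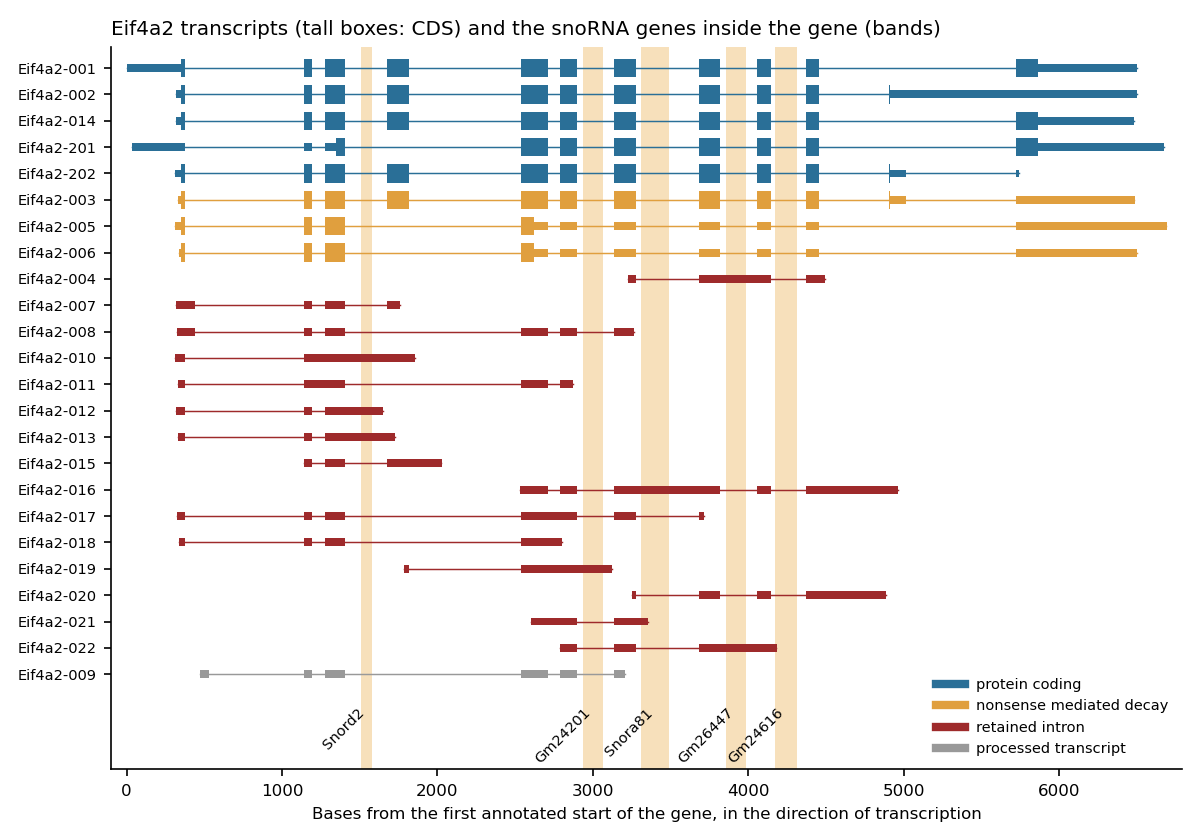
The 24 transcripts of Eif4a2 by distance in bases from the first annotated start, coloured by transcript class, with exons as low boxes, CDS as tall boxes and the 5 snoRNA genes as vertical bands. The bands lie in introns of Eif4a2-014, the transcript with the longest complete CDS, and meet exons of retained-intron transcripts.

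Eef1b2 held Snora41 in intron 4, and Gm26457 and the overlapping model snoZ196 in intron 3. Eef2 held Snord37 in intron 4, and Eif5 held Snora28 in intron 6. Eif3a held Snora19 in intron 9 and Gm26158 in intron 8. Snord66 lay in intron 19 of Eif4g1, and Gm23262 in intron 14 of Eif4g2. None of those in Eef1b2, Eef2, Eif5, Eif3a and Eif4g1 shared a base with a host exon, while 150 bases of Gm23262 lay inside an exon of a processed Eif4g2 transcript without a CDS.

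Counting microRNA genes as well, 14 of 60 members were hosts, against 4.63% of coding genes. RefSeq sequences of build GRCm38.p6 were matched by position for 4 of these hosts and are printed to show which mature microRNAs lie inside translation factor genes; the seed, bases 2 to 8, is in capitals.
mmu-miR-1956 (Eif4e, chr3:138526425-138526446, plus strand): aGUCCAGGgcugagucagcgga
mmu-miR-6399 (Eif4g3, chr4:138163263-138163284, plus strand): uUGCAAUGaugguauucugagg
mmu-miR-7038-5p (Eif3b, chr5:140427344-140427365, plus strand): uGUAGAAGgaagggcugcugug
mmu-miR-7038-3p (Eif3b, chr5:140427388-140427409, plus strand): cACUGCUCcugccuucuuacag
mmu-miR-3084-3p (Eif3a, chr19:60774334-60774354, minus strand): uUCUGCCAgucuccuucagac
mmu-miR-3084-5p (Eif3a, chr19:60774370-60774391, minus strand): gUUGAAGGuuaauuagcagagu
The 6 seeds all differed from each other. Mir1956 lay 242 bases from the start of Eif4e, with 61 of its 65 bases inside an exon of a coding Eif4e transcript. Mir7038 lay in intron 5 of Eif3b and Mir6399 in intron 15 of Eif4g3. The microRNA model in intron 9 of Eif3a, named Mir3084-2 by RefSeq, overlapped Snora19, so the same intron bases carry both names. The other 4 microRNA models, Gm26377 in Eef1a1, AL845457.1 in Eif3j1, Gm27325 in Eif3j2 and AC154540.1 in Eif4a2, lay wholly inside host exons, and AC154540.1 also overlapped Snora81.

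Some members start back to back with another gene. A divergent coding gene started within 1000 bases, without overlap, at 7 of 60 members, against 6.87% of coding genes. The pairs were Eif2b1 with Gtf2h3 (9 bases apart), Eif3i with Tmem234 (20), Eif5b with Txndc9 (117), Eif1ad with Banf1 (168), Eif1a with Tmed7 (169), Eef1d with Tigd5 (179) and Eif2s1 with Atp6v1d (181). Gtf2h3 encodes a subunit of the transcription factor TFIIH and Atp6v1d a subunit of the vacuolar proton pump. Where overlapping starts were allowed, 11 members counted, against 10.6% of coding genes. The additional pairs were Eef1b2 with Ndufs1, Eif2a with Serp1, Eif2b4 with Snx17 and Eif3c with G730046D07Rik. A long non-coding gene started in the same way at 2 members, against 2.54% of coding genes. These were Gm16249, 907 bases from Eif4e1b, and 1700112D23Rik, 168 bases from Eif5a2. Between members, Eif2b5 and Eif4g1 lay 158 kb apart on chromosome 16 and Eif4a1 and Eif5a 244 kb apart on chromosome 11.

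Promoter windows of RefSeq, reaching from 250 bases before to 50 bases after a start in build GRCm38.p6, were matched by symbol for 46 of the 60 members. The 14 without a window were Eef1d, Eef1g, Eif1a, Eif2b3, Eif3e, Eif3h, Eif3i, Eif3j2, Eif4e1b, Eif4e3, Eif4ebp1, Eif4ebp3, Eif4g2 and Eif6. The windows of the members had a median G+C content of 62.5%, from 46% in Eif3f to 78.3% in Eif1b, against 56.3% over 17492 coding genes.

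mRNAs of ribosomal proteins and several translation factors are known to begin with a C followed by a run of pyrimidines (C or T), through which mTOR signalling controls their translation. A C at the RefSeq start followed by at least 4 pyrimidines was present in 2 of 46 members, Eif3f and Eif2s3x, against 2.67% of coding genes and 14 of 75 ribosomal protein genes. Within 5 bases of the start on either side, such a tract began in 11 of 46 members, against 21.5% of coding genes and 45.3% of ribosomal protein genes. With at least 6 pyrimidines after a C at the start, the same 2 members counted, or 4.35% of 46, against 1.21% of coding genes. The shares at the exact start rest on these 2 genes. The search also missed most ribosomal protein genes, with 18.7% matched at the start, although their mRNAs are known for the tract. A member without a match may therefore still carry a tract. The following windows run from 10 bases before the RefSeq start to 20 bases from it. They show the longest tracts and Eef1a1, a gene known for such a tract. Capitals mark the longest C-led pyrimidine run that begins within 5 bases of the start. In Eef1a1 the marked run begins 5 bases before the RefSeq start, and whether it is the known tract was not tested.
Eif2s3x (chrX:94212632-94212661, minus strand): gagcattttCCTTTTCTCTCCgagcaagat
Eif2s3y (chrY:1010585-1010614, plus strand): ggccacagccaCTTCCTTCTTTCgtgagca
Eif3f (chr7:108934405-108934434, plus strand): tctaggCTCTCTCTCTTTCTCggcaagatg
Eif3l (chr15:79075213-79075242, plus strand): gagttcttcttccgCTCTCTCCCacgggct
Eef1a1 (chr9:78481705-78481734, minus strand): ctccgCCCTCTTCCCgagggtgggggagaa
Eif2s3x and Eif2s3y each had such a run close to the start, and their runs differed in letters and position. Where the RefSeq start was also a start of the deposited annotation, a tract at exactly the first base was present in 1 of 27 members, Eif2s3x, against 2.16% of coding genes. The 14 members without a window were not examined for a tract. Eef2 had none within 5 bases of its RefSeq start, and bases further from the start were not searched. Whether a RefSeq start is the first base of the mRNA was not tested.

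Short motifs were searched on both strands of the windows, with the share of coding genes that hold the same letters. CCGGAAGT, the core recognised by ETS factors such as GABPA, was found in 8 of 46 members, against 5.69% of coding genes and 16.0% of ribosomal protein genes. The members were Eef1b2, Eif2b2, Eif2b4, Eif3d, Eif3l, Eif4e2, Eif5a and Eif5a2. In Eif2b4 and Eef1b2 the match began 1 base after the start base. The windows below, from 40 bases before the start to 20 bases from it, show 3 of them with the match on either strand in capitals.
Eif3l (chr15:79075183-79075242, plus strand): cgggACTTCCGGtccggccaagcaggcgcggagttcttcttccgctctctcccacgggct
Eif4e2 (chr1:87213874-87213933, plus strand): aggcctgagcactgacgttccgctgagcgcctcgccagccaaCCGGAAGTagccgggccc
Eif5a2 (chr3:28781237-28781296, plus strand): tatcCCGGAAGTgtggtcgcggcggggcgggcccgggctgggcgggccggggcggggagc
The match shown lay 36 bases before the start in both Eif3l and Eif5a2. Eif5a2 held another match 164 bases before the same start.

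CACGTG, the E-box bound by MYC, MAX, USF and TFEB family proteins, was found in 12 of 46 members, against 8.91% of coding genes and 6 of 75 ribosomal protein genes. The members were Eef2, Eef2k, Eif1b, Eif3a, Eif3f, Eif3k, Eif4a1, Eif4e, Eif4g1, Eif4h, Eif5a and Eif5a2. It lay 24 bases before the start in Eif1b, 31 in Eef2k, 43 in Eef2, 54 in Eif4g1 and 64 in Eif4e. A second match by the same start lay 228 bases before it in Eif4e and 15 bases after it in Eif4g1. Eif5a2 held matches 142 and 117 bases before its start. Stretches around 4 of the matches show that the flanking letters differ.
Eef2k (chr7:120842780-120842825, plus strand): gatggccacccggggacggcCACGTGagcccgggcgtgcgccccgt
Eif1b (chr9:120492562-120492607, plus strand): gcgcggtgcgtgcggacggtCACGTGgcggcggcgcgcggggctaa
Eif4g1 (chr16:20672653-20672698, plus strand): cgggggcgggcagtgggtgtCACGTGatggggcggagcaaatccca
Eif5a2 (chr3:28781140-28781185, plus strand): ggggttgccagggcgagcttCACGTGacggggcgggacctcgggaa
TGACGTCA, the full cAMP response element, was found in 1 of 46 members, Eef2, against 2.54% of coding genes. TATAAA was found in 5 of 46, namely Eef2, Eif2s1, Eif2s3y, Eif3b and Eif3f, against 14.8% of coding genes. The Eef2 window, from 40 bases before to 20 bases from the start, held both, and its TATAAA began 15 bases before the start.
Eef2 (chr10:81176591-81176650, plus strand): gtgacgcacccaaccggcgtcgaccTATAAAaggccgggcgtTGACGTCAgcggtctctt
A match is a description of these letters and not a bound site, and overlaps between motifs were not removed.

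The number of annotated transcripts differed widely between members. The median was 4.5 transcripts per member and 2 per coding gene. Eif4a2 had 24, Eif4g1 22 and Eef1d 18, whereas 20 members had 1. The number moved with curation: 16 of 60 members had no manually curated transcript, against 24.6% of coding genes, and 13 of the 20 members with 1 transcript were among them. The median was 6 in the 44 members with a curated transcript and 1 in the 16 without, against 3 and 1 in coding genes. All 26 members on chromosomes 1, 2, 3, 4, 5, 11 and X had a curated transcript, and the 16 without lay among the 34 members elsewhere. Coding genes as a whole were split in the same direction. A curated transcript was lacking in 2.68% of them on these chromosomes and in 39.7% on the others. Of the 14 eIF3 genes, 7 had none, namely Eif3a, Eif3d, Eif3e, Eif3g, Eif3h, Eif3k and Eif3l. Eef1e1, Eef2, Eif1a, Eif1ad, Eif1b, Eif4b, Eif4ebp1, Eif4ebp2 and Eif5 also had none, so their transcript numbers cannot be set against those of Eif4a2 or Eif4g1.

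**Figure D4:**
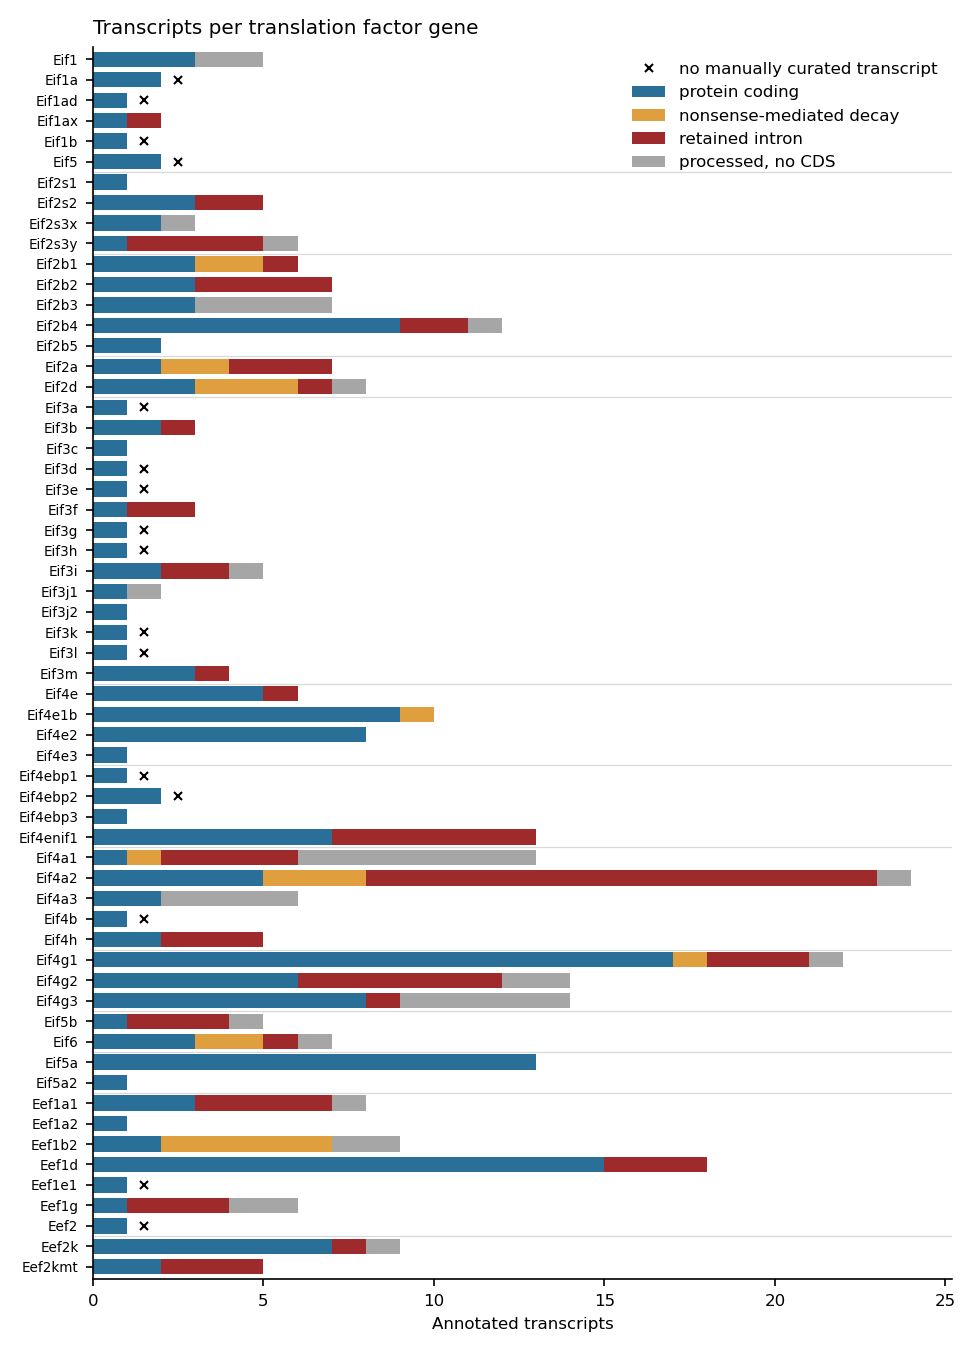
Annotated transcripts of each translation factor gene, stacked by class (protein coding, nonsense-mediated decay, retained intron, processed without CDS) and ordered by role; a cross marks genes without a manually curated transcript. Eif4a2 has 24 transcripts, of which 15 retain an intron, while genes with a cross have 1 or 2.

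Retained-intron transcripts, which keep an intron and are given no CDS, made up 81 of the members' 328 transcripts (24.7%), against 18.8% over all coding genes. They occurred in 27 of 60 members, against 30.0% of coding genes. This background includes the 11.4% of coding genes with a single exon, and a share without them was not counted. Eif4a2 held 15 of the 81, followed by Eif4enif1 and Eif4g2 with 6 each. Eef1a1, Eif2b2, Eif2s3y and Eif4a1 had 4 each. On the 7 best curated chromosomes the share was 19.4% of 170 transcripts in the members and 19.1% in all coding genes. There, 16 of 26 members had at least 1 such transcript (61.5%), against 36.9% of coding genes, so the share of genes and the share of transcripts compared differently. Transcripts marked for nonsense-mediated decay, the pathway that degrades mRNAs with an early stop codon, occurred in 9 of 60 members, against 14.4% of coding genes. Eef1b2 had 5 of the 20, Eif2d and Eif4a2 3 each, and Eif2a, Eif2b1 and Eif6 2 each. Eif4a1, Eif4e1b and Eif4g1 had 1 each.

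**Figure D5:**
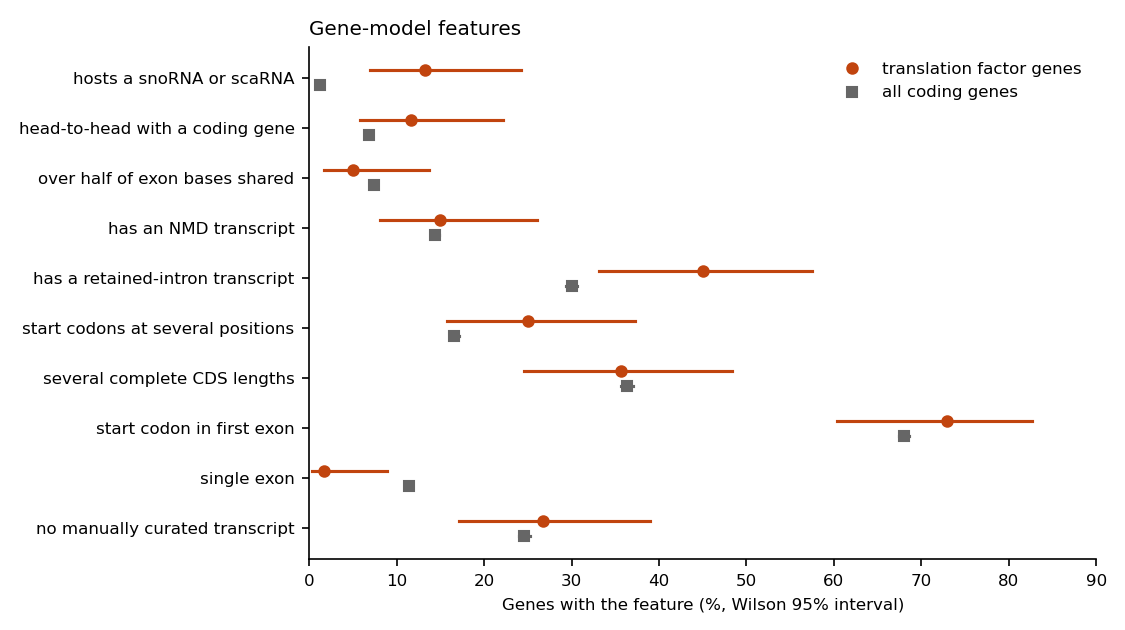
Share of genes with each gene-model feature in percent, for the translation factor genes (circles; 60 genes, 59 where a complete CDS is needed) and all coding genes (squares), with Wilson 95% intervals as lines. The snoRNA hosts (13.3% against 1.25%) and the retained-intron genes have members' intervals above the value of all coding genes. For single-exon genes the interval lies below that value. Intervals cover counting error only, and no test was made.

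Reads cannot always be given to a single member. Over 50% of exon bases were shared with another gene model on the same strand in 3 of 60 members, against 7.45% of coding genes. Eif3j2 shared all 2379 of its exon bases with an added RefSeq model named Gm9781. Eef2kmt shared 2140 of 2649 with an added RefSeq model under its older name Fam86. Eif4ebp3, on chromosome 18, shared 501 of 744 with Ankhd1, the coding gene just upstream, with which it is known to form a read-through transcript. Eif3j1 shared 2367 of 5830 with an added model named Eif3j. Eif4e3 shared 373 of 2515 with the coding gene Gm20696. In the first 2 pairs and in Eif3j1 the same locus appears under 2 names, and reads in the shared bases fit both; the effect on counts was not tested.

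Several models carry names close to the rule without belonging to it. The added RefSeq models Eif2c1, Eif2c2, Eif2c3 and Eif2c4 shared exons with Ago1, Ago2, Ago3 and Ago4, the Argonaute genes of small RNA silencing, and encode no initiation factor. Another 6 models were processed pseudogenes, among them Eif4a-ps4 and Eif5al3-ps, and Eif2c5 was a long non-coding gene. Conversely, methyltransferases of eEF1A stood under older symbols, with Mettl10 for Eef1akmt2, Mettl21b for Eef1akmt3, N6amt2 for Eef1akmt1 and Mettl13 for Eef1aknmt, and Gm8994 is named Eif4a3l1 by RefSeq. These genes were not taken, so the members hold the eEF2 methyltransferase but none of these of eEF1A.

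The other genes of the pathway, a list of 27 symbols, took in release and recycling factors, poly(A)-binding protein and its partners, reinitiation factors, the eIF4A inhibitor Pdcd4, the mRNA-binding protein Larp1, eIF4E kinases, hypusine enzymes, the selenocysteine elongation factor Eefsec, mitochondrial factors and the 4 eIF2 kinases. They gave 28 coding gene records because Mtif3 had 2. A snoRNA lay within 1 of the 28, Eif2ak3. A head-to-head coding gene was found at 2, Gfm2 and Abce1. Nonsense-mediated decay transcripts occurred in 5 and retained introns in 12. Start codons at more than 1 position occurred in 4, namely Mknk2, Paip1, Etf1 and Eif2ak4. Exons were mostly shared in 1, a record of Mtif3, and 4 had no curated transcript.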

How the data were processed

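The deposited file is a gene annotation in GTF format, in which the authors give start and end positions of exons, coding sequences and codons, counted from 1. Its score column is empty in every line and 0 columns hold values per sample, so no comparison of libraries was run and their depth is unknown. Per the submitters' processing notes, TopHat2 version 2.1.1 and build mm10 were used; for the assembly of the annotation no tool is given in these sources.

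Models were read with Python 3.11.15, numpy 2.4.6 and scipy 1.17.1, and drawn with matplotlib 3.10.9. A complete CDS needed start and stop codon lines, and its codons exclude the stop. Lengths come from the transcript with the longest complete CDS. Curated transcripts are those of source havana or ensembl_havana. A host holds a snoRNA or scaRNA gene within its span on its strand. Wilson 95% intervals cover counting error only. Each background includes the members. The functions recovered all 200 of 200 simulated gene models for every property checked. For open starts, shared exons, hosted snoRNAs and head-to-head gaps, most models lacked the feature, and absence counted as recovered. Each simulated gene had a single transcript, so the choice between transcripts was not checked. The motif and tract searches were not simulated.

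Named were the members mostly shared, hosting, head-to-head or renamed, the extremes of each length, and every eIF2, eIF3, eIF4A, eIF4E, eIF4G and elongation factor gene. The members and lists were chosen with earlier results of these data known. The motifs CCGGAAGT, CACGTG, TGACGTCA and TATAAA, the paralogue pairs, start-codon positions and Eif4g2 were chosen after seeing the data. Alternatives covered the sources, strands, distances, tract rules and curated chromosomes.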

Additional observations from a re-analysis of the deposited data

How the results depend on the processing

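Of 26 alternatives, 16 kept their value within 1.5-fold for counts or within the 95% interval for shares and medians, and 10 moved it. Members with mostly shared exons fell from 3 to 1 when only Ensembl models were compared and to 1 at over 90% of exon bases. Hosts of small RNA genes rose from 8 to 14 with microRNA genes, were 6 when no exon base was shared, and were 2 on chromosomes 1, 2, 3, 4, 5, 11 and X. Head-to-head members changed from 7 to 2 with a long non-coding partner and to 11 with overlapping starts allowed. The median 5′ untranslated length was 120 bases in the transcript with the longest CDS. It was 81 bases when the shortest 5′ untranslated length among the complete transcripts of each member was taken. The share of retained-intron transcripts was 24.7% over all members and 19.4% on chromosomes 1, 2, 3, 4, 5, 11 and X, where curation was most complete, and 21.7% without Eif4a2. Members with a pyrimidine tract at the RefSeq start numbered 2, but 11 within 5 bases of the start and 1 at starts shared with the annotation. The overlapping starts and the restriction to the curated chromosomes were chosen after seeing the data. Each of these alternatives by its construction counts other models, bases or genes. Added models counted by symbol gave 65 members in place of 60. These added models were Eif2c1, Eif2c2, Eif2c3 and Eif2c4, which share exons with Argonaute genes, and Eif3j, which shares exons with Eif3j1. They therefore bring in no further translation factor.

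No paired analysis was possible because the deposited annotation holds no values per sample. Promoter motifs rest on 46 of 60 members, and the annotation keeps at most 1 tag per line, so a second tag on an Eif4g2 transcript would not be seen.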
